A study of Homo sapiens with 2 samples.

Results

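Epithelial cells hold to each other through adherens junctions, tight junctions and desmosomes, and they keep an apical and a basal side through the Crumbs, PAR and Scribble polarity complexes. Adherens junctions couple cadherins to actin through catenins, tight junctions seal the space between cells with claudin strands, and desmosomes couple desmosomal cadherins to keratin filaments. Grainyhead-like (GRHL) and OVOL transcription factors maintain this state, and the repressors ZEB1 and SNAI2 (Slug) are known for lowering it during the epithelial-mesenchymal transition. A list of 54 such genes was examined, named for their roles and drawn up with earlier results of these data known, and 50 of them were among the 13017 genes listed for both libraries. The others, CDH2, DSG3, PKP1 and LIN7A, are not analysed here.

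The cells were human breast cancer cells of a line that the labels name 468, of epithelioid morphology, kept in L15 medium with fetal bovine serum. One library was made from cells with THAP7-AS1, an antisense RNA, knocked down by transfection with Smart Silencer, a reagent of pooled oligonucleotides that silence a transcript. The other was made from si-NC control cells, a negative control; both samples carry the silencer in their treatment label, and the genotype label was used to tell the groups apart. Samples were collected after 48 h. With 1 library per group no value has a replicate error and no test of the groups is possible, so each difference describes a pair of libraries. Levels are in FPKM, fragments scaled to gene length and library size, which allows levels of different genes to be set side by side. A log2 ratio is log2((knockdown FPKM + 1)/(control FPKM + 1)), which understates the change of low genes, and a difference of at least 2-fold or 1.5-fold on that scale served as a rule of size.

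Total FPKM was 213442 for knockdown and 213888 for control cells, at an estimated depth of 11100000 fragments for knockdown and 10900000 for control. The silenced RNA THAP7-AS1 is not analysed here, and the success of its silencing could not be read from these values. The overlapping gene THAP7 on the opposite strand was at 8.38 FPKM in knockdown cells and 2.71 FPKM in control cells. The epithelial label held by level: the keratin genes KRT7, KRT8, KRT18 and KRT19 together gave 1689 FPKM in knockdown cells and 1574 FPKM in control cells. Of the other epithelial markers, EPCAM was at 232 FPKM in knockdown and 224 FPKM in control cells. CDH1 went the other way, at 12.4 FPKM in knockdown cells and 17.1 FPKM in control cells. Of 5 fibroblast markers 2 were listed, with a sum of 0.878 FPKM in knockdown cells and 0.874 FPKM in control cells, and of 4 endothelial markers KDR alone was listed, at 1.07 FPKM in knockdown and 1.15 FPKM in control cells. Of 4 blood cell markers CD14 alone was listed, at 10.3 FPKM in knockdown cells and 9.50 FPKM in control cells, so that this gene was not at 0. The part of other cells in the results below was not tested.

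Promoter sequences are shown because the list holds repressors with a known DNA word as well as the genes they are known to act on. ZEB1 and SNAI2 bind E-boxes of the form CAGGTG, and both were listed near 0 FPKM in each library, as given below. RefSeq promoter windows (build GRCh38.p14, from 250 bases before to 50 bases after a gene's start; the expression tables name build hg19) were found for 30 of the 45 members with a mean of at least 1 FPKM. Members without a window included CDH1, CDH3, EPCAM, GRHL2 and PARD6B, and the member shares below leave them out. CAGGTG or its reverse complement CACCTG was in at least 1 window of 17 of the 30 members, or 56.7%, and in 2111 of 8858 genes kept, or 23.8%. Counted by window, since members have several starts, it was in 19 of 49 member windows, or 38.8%. The share was 18.7% of the 12833 windows of genes kept and 20.6% of all 35116 windows. A match of letters is a description and not a binding site. CRB3 and CLDN7 had the most matches, 5 each, and are shown with the matches in capitals. The other CLDN7 window had none. LIN7C and CLDN12, picked as the members with the lowest ratios, are shown beside them and had none in these windows. Matches did not go with the ratio throughout. CTNNA1 and GRHL1, at log2 ratios of 0.33 and 0.22, had none, and OCLN and DSG2, at -0.27 and -0.17, had matches. A link between matches and ratios was not tested.

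CRB3, chr19:6464021-6464320, + strand: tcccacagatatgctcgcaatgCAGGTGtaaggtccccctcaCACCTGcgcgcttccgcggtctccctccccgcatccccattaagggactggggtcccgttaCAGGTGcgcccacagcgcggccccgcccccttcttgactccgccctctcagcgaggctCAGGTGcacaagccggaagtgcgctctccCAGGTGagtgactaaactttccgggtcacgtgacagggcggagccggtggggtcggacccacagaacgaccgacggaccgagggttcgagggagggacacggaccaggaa

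CLDN7, chr17:7262429-7262728, - strand: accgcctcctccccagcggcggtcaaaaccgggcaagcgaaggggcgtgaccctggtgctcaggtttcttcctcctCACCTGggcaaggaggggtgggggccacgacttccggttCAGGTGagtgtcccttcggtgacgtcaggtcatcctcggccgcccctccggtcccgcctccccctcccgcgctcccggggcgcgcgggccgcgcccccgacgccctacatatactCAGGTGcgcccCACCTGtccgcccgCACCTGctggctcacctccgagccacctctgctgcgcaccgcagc

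LIN7C, chr11:27506720-27507019, - strand: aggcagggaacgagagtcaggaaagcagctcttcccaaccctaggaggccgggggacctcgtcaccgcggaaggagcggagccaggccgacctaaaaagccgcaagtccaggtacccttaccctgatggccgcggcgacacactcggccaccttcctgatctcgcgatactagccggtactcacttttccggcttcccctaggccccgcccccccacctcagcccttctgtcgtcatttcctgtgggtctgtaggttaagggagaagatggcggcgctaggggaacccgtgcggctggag

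CLDN12, chr7:90403211-90403510, + strand: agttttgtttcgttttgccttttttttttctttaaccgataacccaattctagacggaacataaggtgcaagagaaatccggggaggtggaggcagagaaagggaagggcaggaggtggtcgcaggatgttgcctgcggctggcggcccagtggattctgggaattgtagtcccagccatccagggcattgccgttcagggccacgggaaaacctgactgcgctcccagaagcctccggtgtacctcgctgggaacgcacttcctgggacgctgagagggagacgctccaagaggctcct

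The word AACCNGTT, a form of the GRHL motif, was searched on both strands with no overlap with the E-box. It was in 1 of the 49 member windows, that of CGN, in 1.37% of windows of genes kept and in 1.73% of all windows. The other forms of GRHL sites were not searched.

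The first question was how strongly each kind of junction gene was expressed. EPCAM, an epithelial adhesion molecule placed here with the adherens junction, was the most abundant member at 232 FPKM in knockdown cells and 224 FPKM in control cells. DSP, desmoplakin, which ties desmosomes to keratin, followed at 151 FPKM in knockdown and 145 FPKM in control cells. CLDN3, a sealing claudin, was at 91.4 FPKM in knockdown cells and 83.4 FPKM in control cells. These leading members and their order were alike in the libraries. At the other end, 5 listed members had a mean under 1 FPKM and were left out of all counts and medians: CLDN4 at 0.233 FPKM in knockdown cells and 0.303 FPKM in control cells, GJB2, the gap junction gene connexin 26, at 0.470 FPKM in knockdown and 0.791 FPKM in control cells, SNAI2 at 0.165 FPKM in knockdown and 0.179 FPKM in control cells, ZEB1 at 0.046 FPKM in knockdown and 0.085 FPKM in control cells, and PPL, periplakin, at 0.023 FPKM in knockdown and 0.022 FPKM in control cells. At these levels the estimated depth gives few fragments per gene, for example 4.08 for SNAI2 in the knockdown library, so that differences among them were not detectable.

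**Figure D1:**
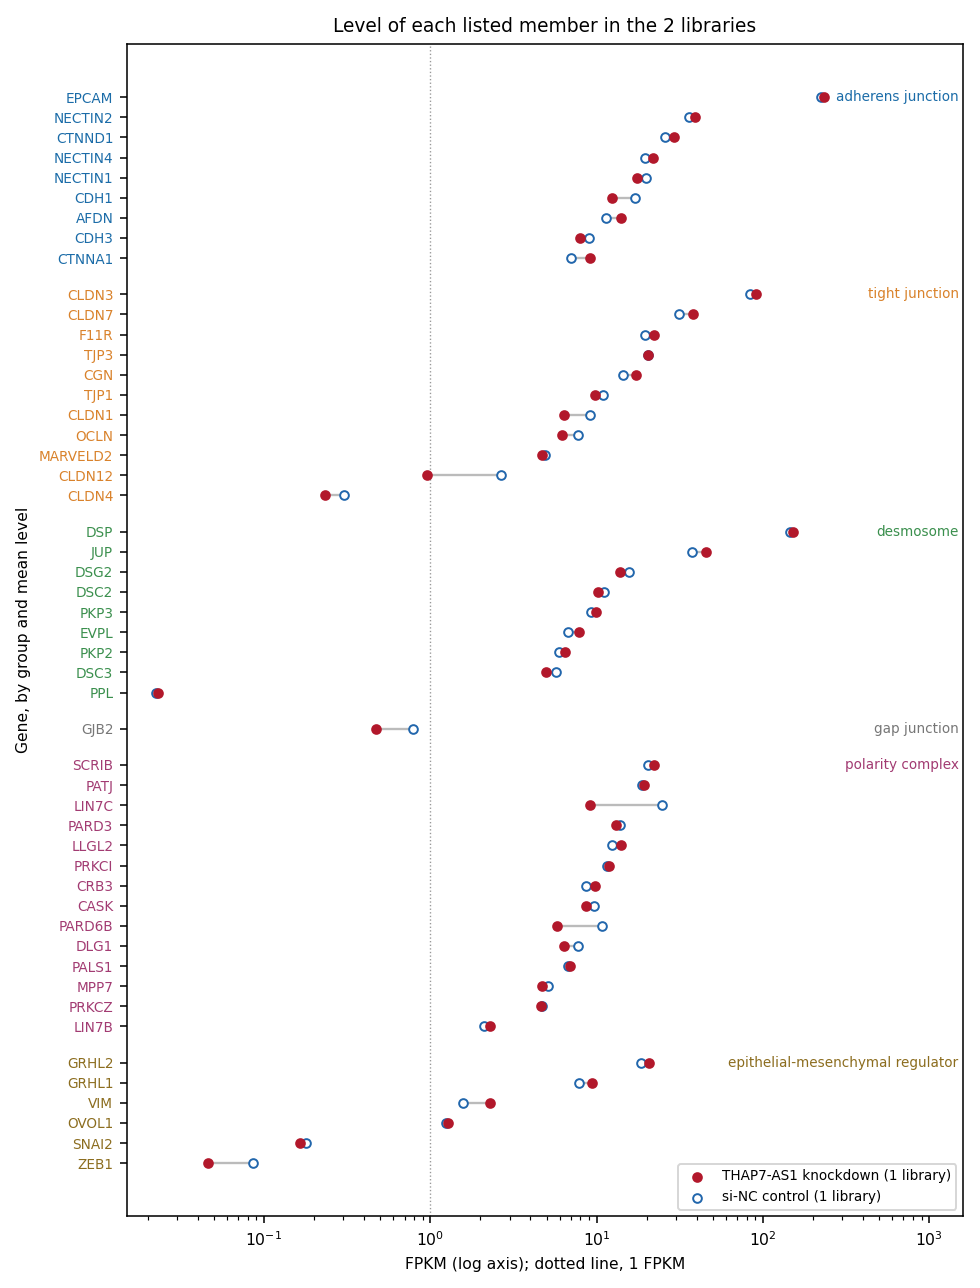
FPKM of each of the 50 listed members (log axis), by group and mean level, with a filled point for the knockdown library and an open point for the control library. Most pairs of points nearly coincide; LIN7C at 9.09 FPKM in knockdown and 24.7 FPKM in control cells, PARD6B at 5.80 FPKM in knockdown and 10.7 FPKM in control cells and CLDN12 at 0.951 FPKM in knockdown and 2.67 FPKM in control cells are the widest apart among members with a mean of at least 1 FPKM.

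The second question was whether these genes differed between knockdown and control cells. Most differed little: 34 of the 45 members with a mean of at least 1 FPKM, or 75.6%, differed by less than 1.2-fold, against 74.1% of the 10925 genes kept. No member was at least 2-fold higher in knockdown cells, against 0.604% of all genes, and 1 member, LIN7C, was at least 2-fold lower, against 0.668% of all genes. At 1.5-fold, 0 of 45 members were higher, against 2.98% of all genes, and 3 of 45, or 6.67%, were lower, against 2.46% of all genes. The 3 are LIN7C, CLDN12 and PARD6B. The median log2 ratio of the members was 0.04, and that of all genes kept was 0.02, with a spread over all genes (SD from the median absolute deviation) of 0.21 and over members of 0.21. Of the members, 26 were above 0 and 19 below. In RNA from a whole culture, fewer cells that express a gene and less of its RNA per cell cannot be told apart. By annotation, 5 of these members (CTNND1, CLDN7, CLDN12, F11R and SCRIB) overlap exons of a further gene on their own strand and 16 those of a gene on the opposite strand, and their values are uncertain to that extent.

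**Figure D2:**
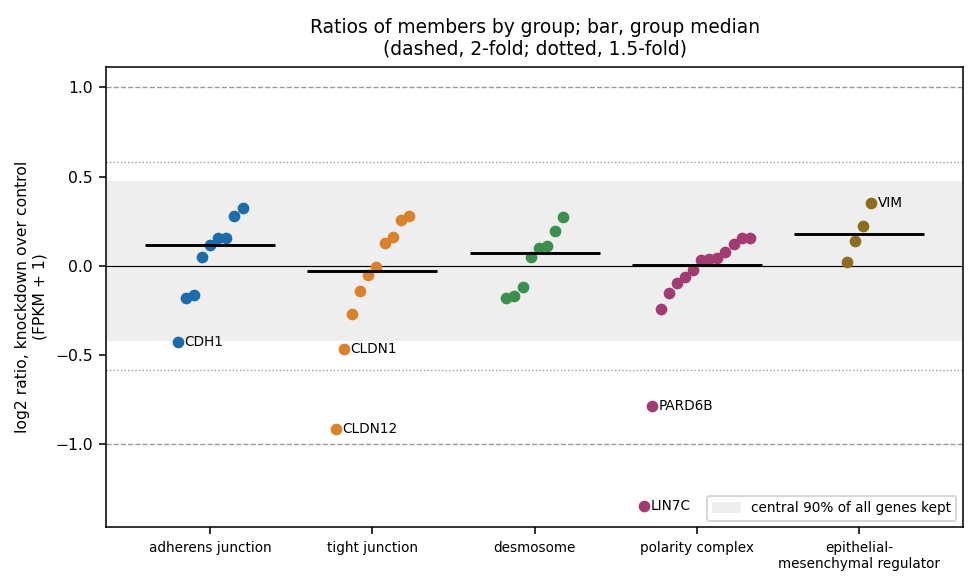
Log2 ratio of knockdown over control (FPKM + 1) for the 45 members with a mean of at least 1 FPKM, in 5 groups, with a bar at each group's median and a grey band over the central 90% of all genes kept. The group medians lie between -0.03 and 0.18, and LIN7C, CLDN12 and PARD6B lie apart below.

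Polarity genes held the largest difference. LIN7C, a small PDZ scaffold that joins the Crumbs and CASK complexes, was at 9.09 FPKM in knockdown cells and 24.7 FPKM in control cells. Its log2 ratio of -1.35, a 2.54-fold lower value, was the 28th lowest of 10925 genes. In the deposited scale without the added 1 the log2 ratio was -1.44, with a counting error of 0.078 at the estimated depth, which does not cover differences between cultures. No annotated gene shares exons with LIN7C on either strand. Its paralog LIN7B was low in both, at 2.29 FPKM in knockdown cells and 2.12 FPKM in control cells. The summed level of LIN7B and LIN7C was therefore 11.4 FPKM in knockdown cells and 26.8 FPKM in control cells, with LIN7C making up 79.9% of it in knockdown cells and 92.1% in control cells.

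The known partners of LIN7C were nearly level between the libraries. PALS1, which binds LIN7 proteins in the Crumbs complex, was at 6.92 FPKM in knockdown cells and 6.71 FPKM in control cells, and PATJ, its multi-PDZ partner, was at 19.3 FPKM in knockdown and 18.7 FPKM in control cells. CRB3, the epithelial Crumbs protein, was at 9.77 FPKM in knockdown cells and 8.67 FPKM in control cells. CASK, a basolateral scaffold, was at 8.58 FPKM in knockdown and 9.64 FPKM in control cells, and MPP7, which links LIN7 to DLG1, at 4.71 FPKM in knockdown and 5.09 FPKM in control cells. The log2 ratios of these 5 genes lay between -0.15 and 0.16. There were 1.31 units of LIN7C per unit of PALS1 in knockdown cells and 3.67 in control cells, in FPKM.

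Among the members of the PAR complex, which sets the apical border, PARD6B alone stood apart. It was at 5.80 FPKM in knockdown cells and 10.7 FPKM in control cells, a log2 ratio of -0.79, or 1.72-fold lower, the 139th lowest of all genes kept. The kinase gene PRKCI, whose product binds PARD6 proteins, was at 11.9 FPKM in knockdown cells and 11.6 FPKM in control cells. The related kinase gene PRKCZ was at 4.64 FPKM in knockdown and 4.72 FPKM in control cells, and the scaffold gene PARD3 at 13.1 FPKM in knockdown and 13.8 FPKM in control cells. The other PARD6 genes, named from a wider list, were lower in level. PARD6A was at 2.94 FPKM in knockdown and 2.16 FPKM in control cells, and PARD6G at 1.52 FPKM in knockdown and 1.67 FPKM in control cells. PARD6B made up 56.6% of the summed PARD6 level in knockdown cells and 73.7% in control cells. From the same wider list, PARD3B was at 3.46 FPKM in knockdown and 2.28 FPKM in control cells, a log2 ratio of 0.45. In the Scribble complex, which marks the basolateral side, SCRIB was at 22.2 FPKM in knockdown cells and 20.3 FPKM in control cells, LLGL2 at 14.0 FPKM in knockdown and 12.4 FPKM in control cells, and DLG1 at 6.39 FPKM in knockdown and 7.72 FPKM in control cells. These 3 differed by less than 1.2-fold. The median over the 14 polarity genes was 0.01, with 7 above 0 and 7 below.

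Among tight junction genes the claudins went in different directions. CLDN12, an unusual claudin without the common PDZ-binding tail, was at 0.951 FPKM in knockdown cells and 2.67 FPKM in control cells, a log2 ratio of -0.91, or 1.88-fold lower. It rested on about 37.3 estimated fragments in the knockdown library, and without the added 1 the log2 ratio was -1.49 with a counting error of 0.28. CDK14, which shares exons with CLDN12 on the same strand in the annotation, was at 2.11 FPKM in knockdown cells and 0.945 FPKM in control cells, the opposite direction; whether reads were divided differently between these overlapping models was not tested. CLDN1, a barrier claudin, was at 6.39 FPKM in knockdown cells and 9.19 FPKM in control cells, a log2 ratio of -0.46. CLDN3 and CLDN7 had log2 ratios of 0.13 and 0.28, with CLDN7 at 38.2 FPKM in knockdown cells and 31.3 FPKM in control cells. Among these claudins the more abundant ones lay above 0, and the sum of 11 listed claudins was 186 FPKM in knockdown cells and 168 FPKM in control cells, of which CLDN3 made up 49.1% in knockdown cells and 49.8% in control cells.

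The membrane and scaffold genes of tight junctions differed little. OCLN, occludin, was at 6.22 FPKM in knockdown cells and 7.68 FPKM in control cells, a log2 ratio of -0.27. MARVELD2, tricellulin, which seals the points where 3 cells meet, was at 4.68 FPKM in knockdown and 4.88 FPKM in control cells. F11R, the junctional adhesion molecule JAM-A, was at 22.0 FPKM in knockdown cells and 19.5 FPKM in control cells. TJP1, the scaffold ZO-1, was at 9.80 FPKM in knockdown and 10.9 FPKM in control cells, and TJP3, the related ZO-3, at 20.3 FPKM in knockdown and 20.4 FPKM in control cells. CGN, cingulin, which lies at the inner face of the junction, was at 17.4 FPKM in knockdown cells and 14.4 FPKM in control cells. The median over the 10 tight junction genes was -0.03, with 4 above 0 and 6 below.

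Among the listed adherens junction genes, CDH1 and CDH3 lay below 0 and CTNNA1 and CTNND1 above. CDH1, E-cadherin, was at 12.4 FPKM in knockdown cells and 17.1 FPKM in control cells, a log2 ratio of -0.43, which was the 522nd lowest of all genes kept and short of 1.5-fold. CDH3, P-cadherin, had 7.95 FPKM in knockdown cells and 9.03 FPKM in control cells, for a log2 ratio of -0.16. CTNNA1, alpha-catenin, which links the complex to actin, was at 9.07 FPKM in knockdown cells and 7.03 FPKM in control cells, a log2 ratio of 0.33. CTNND1, p120-catenin, which holds cadherins at the membrane, was at 29.1 FPKM in knockdown cells and 25.9 FPKM in control cells. In the wider list the signs were mixed: CTNNB1, beta-catenin, was at 27.0 FPKM in knockdown and 26.2 FPKM in control cells, and CTNNAL1, an alpha-catenin-like gene, at 3.31 FPKM in knockdown and 4.30 FPKM in control cells. There were 0.730 units of CTNNA1 per unit of CDH1 in knockdown cells and 0.412 in control cells, a comparison chosen after the values were seen.

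Nectins, which form contacts before cadherins do, were more alike. NECTIN1 was at 17.5 FPKM in knockdown cells and 19.9 FPKM in control cells, NECTIN2 at 39.2 FPKM in knockdown and 36.1 FPKM in control cells, and NECTIN4 at 21.8 FPKM in knockdown and 19.4 FPKM in control cells. AFDN, afadin, which binds nectins to actin, was at 14.0 FPKM in knockdown cells and 11.4 FPKM in control cells, a log2 ratio of 0.28. The median over the 9 measured adherens junction genes was 0.12, with 6 above 0 and 3 below.

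Of the 8 kept desmosome members 7, all but JUP, differed by less than 1.2-fold. The desmosomal cadherins lay below 0: DSG2 was at 13.8 FPKM in knockdown cells and 15.6 FPKM in control cells, DSC2 at 10.2 FPKM in knockdown and 11.1 FPKM in control cells, and DSC3 at 4.95 FPKM in knockdown and 5.72 FPKM in control cells. Their sum was 28.9 FPKM in knockdown cells and 32.5 FPKM in control cells. The plaque genes lay above 0. JUP, plakoglobin, a catenin of desmosomes that also serves adherens junctions, was at 45.7 FPKM in knockdown cells and 37.6 FPKM in control cells, a log2 ratio of 0.27. Of the plakophilin genes, PKP2 was at 6.46 FPKM in knockdown and 5.91 FPKM in control cells and PKP3 at 9.96 FPKM in knockdown and 9.23 FPKM in control cells, and EVPL, envoplakin, was at 7.82 FPKM in knockdown and 6.70 FPKM in control cells. All 5 kept cadherin genes among the members were below 0. Each of the plaque genes CTNNA1, CTNND1, JUP, PKP2, PKP3, EVPL and DSP was above 0. These signs were the same under each scaling tried. A pseudocount cannot change a sign, and centring and rescaling shift all genes nearly alike, so the stable signs are no support for the division. The wider list did not keep to this division: the cadherin gene CDH24 was above 0, at a log2 ratio of 0.03, and the plaque gene PKP4 and CTNNAL1 were below 0, at -0.02 and -0.30, while CTNNB1 and ARVCF, a p120-related catenin, were above 0, at 0.05 and 0.10. The division was noticed in the values, every difference in it was under 1.5-fold, and it has no test.

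**Figure D3:**
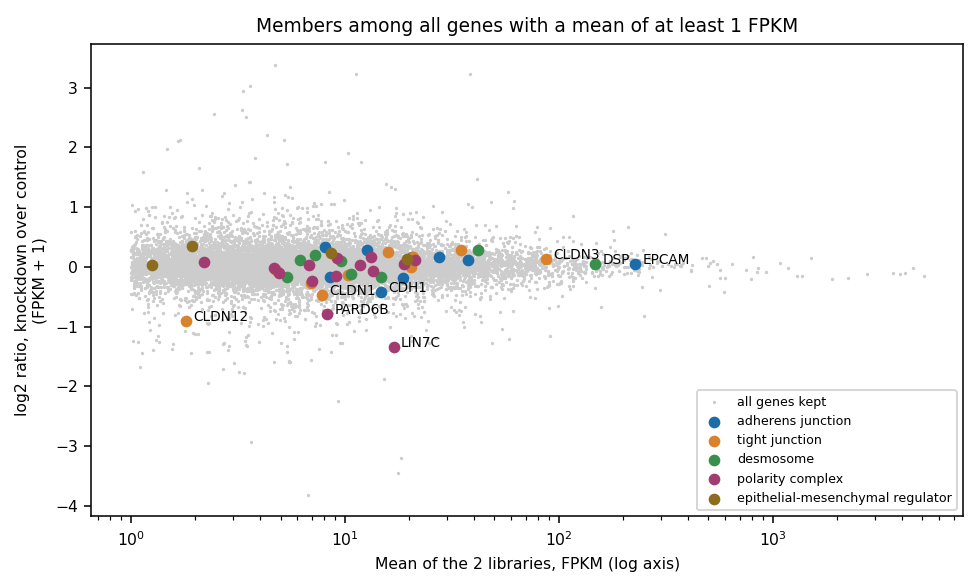
Log2 ratio of knockdown over control (FPKM + 1) against mean FPKM (log axis) for all 10925 genes kept (grey) and for the members (coloured by group). EPCAM, DSP and CLDN3 lie near 0 at high levels, and LIN7C lies below most genes of its level at -1.35.

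The group of epithelial-mesenchymal regulators pools regulators of the epithelial state with VIM, a mesenchymal gene. Its 4 members that passed 1 FPKM all lay above 0, none by as much as 1.5-fold, and their shared sign has no single meaning. In the wider list, 17 genes of this group were kept, with 9 above 0, 8 below and a median log2 ratio of 0.003. GRHL2 was at 20.6 FPKM in knockdown cells and 18.6 FPKM in control cells, GRHL1 at 9.37 FPKM in knockdown and 7.88 FPKM in control cells, and OVOL1 at 1.28 FPKM in knockdown and 1.24 FPKM in control cells. OVOL1 was below 0, at -0.02, under quantile normalization. VIM, vimentin, the intermediate filament of mesenchymal cells, was at 2.29 FPKM in knockdown cells and 1.57 FPKM in control cells, a log2 ratio of 0.36 and the highest among the members. It rested on about 51.0 estimated fragments in the knockdown library, and without the added 1 the log2 ratio was 0.54 with a counting error of 0.32. The repressors ZEB1, ZEB2, SNAI1 and SNAI2 together gave 0.831 FPKM in knockdown cells and 0.987 FPKM in control cells.

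A wider list of 114 further junction, polarity and epithelial-mesenchymal genes had 84 listed and 72 with a mean of at least 1 FPKM. Their median log2 ratio was 0.03, with 43 above 0 and 29 below. None was at least 2-fold higher, against 0.604% of all genes kept, and 1, or 1.39%, was at least 2-fold lower, against 0.668%. It was CLDND1, a claudin-domain gene, at 3.33 FPKM in knockdown cells and 8.27 FPKM in control cells. At 1.5-fold, 3, or 4.17%, were higher, against 2.98% of all genes kept, and 4, or 5.56%, were lower, against 2.46%, CLDND1 included. The higher ones were PERP, a desmosomal membrane gene, at 62.8 FPKM in knockdown cells and 38.8 FPKM in control cells, the GTPase gene RAC1 at 96.8 FPKM in knockdown and 60.6 FPKM in control cells, and ID2, an inhibitor of helix-loop-helix factors, at 5.08 FPKM in knockdown and 2.20 FPKM in control cells. The other lower ones included LIMA1, an actin-binding partner of alpha-catenin, at 5.93 FPKM in knockdown cells and 12.3 FPKM in control cells, and ID1 at 14.8 FPKM in knockdown and 24.0 FPKM in control cells. CLDND1 shares exons with another annotated gene on the same strand.

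The members also differed in transcript structure along with their ratios. The 3' UTR of principal transcripts in GENCODE release 29 was 4073 bases in LIN7C, 3253 in PARD6B and 2543 in CLDN12, against a median of 1666 over the 45 members and 985 over all genes kept with such a transcript. Of 19 members with a 3' UTR of at least 2000 bases, 13 were below 0, and of 26 with a shorter one, 6 were below 0. Over all genes the same division was weaker, with 55.4% below 0 among long and 43.7% among shorter 3' UTRs. Across the 45 members the log2 ratio and 3' UTR length had a Spearman rho of -0.54, and of -0.48 without LIN7C, PARD6B and CLDN12; across 10869 genes rho was -0.15. The GC content of the transcript had a rho of 0.56 with the ratio across members, against 0.13 over all genes. Its rho with the members' 3' UTR length was -0.74, so length and GC content cannot be told apart among the members. In the wider list of 72 genes the ratio had a rho of 0.02 with 3' UTR length and of 0.14 with GC content. PERP, with a 3' UTR of 3537 bases, was higher in knockdown cells. Genes are not independent replicates, and all these points share the same pair of libraries.

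**Figure D4:**
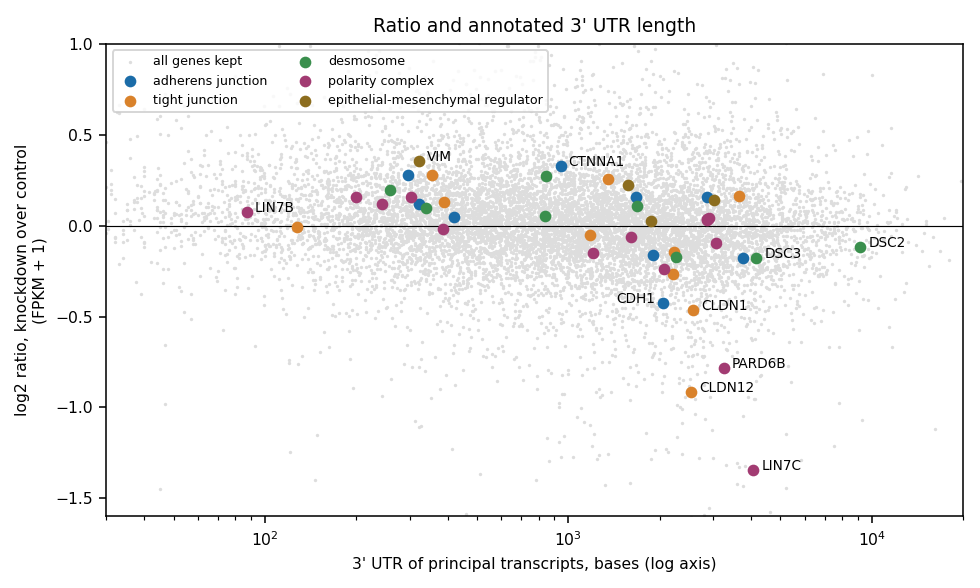
Log2 ratio of knockdown over control (FPKM + 1) against annotated 3' UTR length in bases (log axis) for all genes kept (grey; 130 of 10760 lie outside the axes) and members (coloured by group). LIN7C, PARD6B and CLDN12 have long 3' UTRs and the lowest ratios, while DSC2, with the longest at 9175 bases, is at -0.12.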

How the data were processed

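The deposited values are FPKM computed by the authors, 1 table for each library, per the file headers. Cutadapt, HISAT2 2.0.5, StringTie and build hg19 are named in the submitters' processing notes. The annotation, the strandedness and the other versions are not given in the sources, so reads of overlapping antisense genes cannot be told apart. Identifiers without version were mapped to symbols, found for 12746 of 13017 genes. Ratios used an added 1 FPKM, and the 10925 genes whose mean reached 1 FPKM were kept. All listed members are named, and of further junction genes those at least 1.5-fold apart, except 1 that is not reported here; members, lists and alternatives were chosen with earlier results of these data known. Fragments were estimated from the value of 1 fragment in genes with 1 annotated transcript, over 13 genes in the knockdown and 10 in the control library, in a window set after seeing the values, and from principal transcript lengths. GENCODE release 29 was used by identifier only. Python 3.11.15, numpy 2.4.6, pandas 2.3.3 and matplotlib 3.10.9 were used, and the ratio and fold functions were tested on simulated data.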

Additional observations from a re-analysis of the deposited data

How the results depend on the processing

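No paired analysis was possible because each group has 1 library, and for the same reason no library could be left out. The count of members at least 2-fold lower, 1 in the values above, was 2 (LIN7C and CLDN12) with a pseudocount of 0.1. The count at least 1.5-fold lower, 3, was 1 (LIN7C) with a pseudocount of 5, which by construction shrinks the ratios of low genes. It was 2 with a mean of at least 5 and 2 without genes that share exons, since both settings leave out CLDN12. Both counts of higher members were 0 under every alternative run: pseudocounts of 0.1 and 5, centring, quantile normalization, rescaling without the 100 most abundant genes, a mean of at least 5, no filter, and leaving out genes that share exons. The polarity median of 0.01 became -0.15 as a mean, and the median of epithelial-mesenchymal regulators, 0.18, became 0.081 with no filter, which adds ZEB1 and SNAI2. The other medians, including that with JUP counted in the adherens junction, moved by at most 0.1, but those near 0 changed sign: the tight junction median of -0.03 became 0.062 with a mean of at least 5, the median of all members, 0.04, became -0.039 as a mean, and the polarity median became -0.0085 with centring, -0.0033 with quantile normalization, -0.0084 with rescaling and -0.020 without genes that share exons. LIN7C ranged from -1.43 with a pseudocount of 0.1 to -1.07 with 5, CLDN12 from -1.40 to -0.37 and PARD6B from -0.87 to -0.54. Changing the pseudocount or scaling gave 225 values of single members, and 221 of them stayed within the spread of genes of like level. Only 1 value, of OVOL1 under quantile normalization, changed sign. A pseudocount cannot change a sign, and centring and rescaling shift all genes nearly alike, so the count of sign changes says little about stability. Depth limits CLDN12, LIN7B, OVOL1 and VIM most.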
